A study of Homo sapiens with 6 samples.

Results

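The small nucleolar RNA (snoRNA) host genes described here are SNHG1, SNHG5, SNHG6, SNHG7, SNHG8, SNHG12, SNHG15, SNHG16, GAS5 and ZFAS1, taken by gene name from the deposited expression table, which makes 10 of its 29153 genes. Each was compared between 3 control libraries and 3 LINC01977 knockdown libraries of HepG2, a line of human hepatocellular cancer cells. In the knockdown libraries ZFAS1 was 1.20-fold higher and SNHG7 was 1.43-fold lower. The other 7 tested hosts, GAS5 among them, did not pass the test, and SNHG15 was next to undetected in its row of the table.

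A snoRNA host gene is transcribed like any other gene, but the product that gives it its name lies in the introns. After splicing, box C/D snoRNAs released from introns guide methylation of ribose in ribosomal RNA, and box H/ACA snoRNAs guide conversion of uridine to pseudouridine. The spliced exons, which are what a gene-level count of these hosts mostly holds, often carry no long reading frame and are removed by nonsense-mediated decay, a pathway coupled to translation. Many of the hosts start with a run of pyrimidines, as ribosomal protein genes do, and GAS5 was named because its RNA accumulates in cells whose growth is arrested.

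The control cells received a lentivirus with a non-targeting hairpin (shNC) and the knockdown cells a lentivirus with a hairpin against LINC01977, a long noncoding RNA (shLINC01977), each for 72 h. Only 1 hairpin was used, and the knockdown columns of the table are headed sh3. The study's methods describe selection of infected cells with puromycin. The library totals were between 49929024 and 60441515 counts. LINC01977 itself had counts of 4, 0 and 16 in the shNC libraries and 0, 0 and 4 in the shLINC01977 libraries, which is too few to check the labels (log2 fold change -2.12, SE 1.96, adjusted p = 0.58 by edgeR). The labelled cell line was checked against marker lists. All 10 hepatocyte markers passed the filter on low values, with a summed level of 5588 to 5962 FPKM (fragments scaled to transcript length and library size) in shNC and 4720 to 4836 FPKM in shLINC01977. The 4 endothelial markers in the table were under 0.5 FPKM in every library, with sums of 0.273 to 0.441 FPKM in shNC and 0.220 to 0.315 FPKM in shLINC01977. Of 4 leukocyte markers in the table, the defining one, PTPRC, was at or near 0 in every library, and the sum, nearly all LYZ, was 625 to 633 FPKM against 543 to 558 FPKM. The 5 mesenchymal markers in the table summed to 3.04 to 4.21 FPKM in shNC and 5.48 to 7.67 FPKM in shLINC01977, with COL3A1, THY1 and VIM under 0.5 FPKM throughout. The part of these marker differences in the results below was not tested. In bulk RNA, fewer cells of a kind and less RNA per cell cannot be told apart.

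The starts of the hosts and the snoRNAs they carry are shown first, for the members on which the results turn. The RefSeq table of promoters (GRCh38.p14) held 8 of the 10 members, all but SNHG6 and SNHG15. In 7 of these 8, an unbroken run of at least 6 C or T bases overlapped the stretch from 10 bases before to 20 bases after the start, which was so in 38.3% of all 35116 promoters in that table. The letters TATAA, read on either strand and starting 40 to 20 bases before the start, were found in 5 members, SNHG5, SNHG7, SNHG8, SNHG12 and ZFAS1, against 4.72% of all promoters. On the strand of the gene the share was 3.91%, and the same count of 5 members held it. Such a match is a description of letters and not a measured binding site. Each window below runs from 60 bases before the RefSeq start to 40 bases from it, and capitals mark the longest C or T run. ZFAS1 (chr20:49278582-49278681, plus strand) and SNHG7 (chr9:136728145-136728244, minus strand) are the hosts that passed the test, SNHG5 (chr6:85678694-85678793, minus strand) is the host with the highest level, and SNHG12 (chr1:28581834-28581933, minus strand) has the longest run, of 12 bases.
ZFAS1: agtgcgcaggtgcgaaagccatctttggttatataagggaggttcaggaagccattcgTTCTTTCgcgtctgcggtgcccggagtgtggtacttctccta
SNHG7: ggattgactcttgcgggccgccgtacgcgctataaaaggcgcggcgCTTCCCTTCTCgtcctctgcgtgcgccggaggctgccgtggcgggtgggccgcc
SNHG5: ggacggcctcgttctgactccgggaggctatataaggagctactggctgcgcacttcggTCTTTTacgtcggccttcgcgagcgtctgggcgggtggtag
SNHG12: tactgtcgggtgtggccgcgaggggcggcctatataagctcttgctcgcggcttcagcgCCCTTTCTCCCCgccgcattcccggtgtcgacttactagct
The run was 7 bases long in ZFAS1, 11 in SNHG7 and 6 in SNHG5. In SNHG7 it began 14 bases before the RefSeq start and ended before that start. SNHG1 had a run of 7 bases, SNHG16 of 8 and SNHG8 of 6, and GAS5, whose RefSeq start lies outside the gene's interval in the expression table, had a longest run of 4. For the windows shown, the RefSeq start lay 1110 bases inside that interval in SNHG12, 464 in ZFAS1, 3 in SNHG5 and 0 in SNHG7. The host that rose and the host that fell both had a pyrimidine run at or near the RefSeq start and the TATAA letters. These features did not set them apart from SNHG5, SNHG8 or SNHG12, which were not called.

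The snoRNA genes of the same pair of hosts are of different classes. ZFAS1 carries 3 box C/D snoRNAs, SNORD12C (chr20:49278940-49279028), SNORD12B (chr20:49280319-49280409) and SNORD12 (chr20:49280683-49280772) on the plus strand. SNHG7 carries box H/ACA snoRNAs, of which SNORA17A (chr9:136726747-136726879, minus strand) is shown. The sequences are from the GENCODE 29 intervals on GRCh38. Capitals mark the letters of box C (TGATGA) and box D (CTGA) in the SNORD12 snoRNAs and the terminal ACA in SNORA17A.
SNORD12C: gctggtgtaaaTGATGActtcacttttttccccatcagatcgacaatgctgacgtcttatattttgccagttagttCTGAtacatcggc
SNORD12B: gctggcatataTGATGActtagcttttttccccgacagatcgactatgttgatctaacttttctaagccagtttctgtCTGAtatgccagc
SNORD12: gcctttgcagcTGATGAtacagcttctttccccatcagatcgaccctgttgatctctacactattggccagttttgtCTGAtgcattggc
SNORA17A: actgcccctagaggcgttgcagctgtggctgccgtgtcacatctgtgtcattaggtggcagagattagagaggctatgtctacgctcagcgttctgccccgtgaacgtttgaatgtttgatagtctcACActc
Over the 15 box C/D genes inside the hosts whose sequence was read, 8 held TGATGA followed by CTGA. Of the 9 box H/ACA genes, 6 held ACA just before the last 3 or 4 bases. Some of these 9 are overlapping entries of the same snoRNA.

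The question of the comparison was which hosts differed between LINC01977 knockdown and control cells. The quasi-likelihood test of edgeR was run on the counts of the 13452 genes with a mean of at least 0.5 FPKM, of which 9 were members. Of these 9, ZFAS1 was called higher and SNHG7 was called lower at an adjusted p under 0.05, which is 22.2%, where 15.1% of all tested genes were called (7.05% higher and 8.07% lower). No member passed a fold change of 2 with an unadjusted p of at most 0.05, as 2.6% of all tested genes did by edgeR. With so few members, 2 calls do not set the hosts apart from the table. Their median log2 fold change was -0.01, beside -0.001 over all tested genes, with 4 positive and 5 negative values. Levels are given below as CPM, counts scaled to a common library size with TMM factors. The CPM ranges of the groups did not overlap for ZFAS1 and GAS5, which lay higher, and for SNHG7, which lay lower. That is 33.3% of the tested members, and 37.1% of all tested genes did not overlap (18.8% higher and 18.3% lower).

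**Figure D1:**
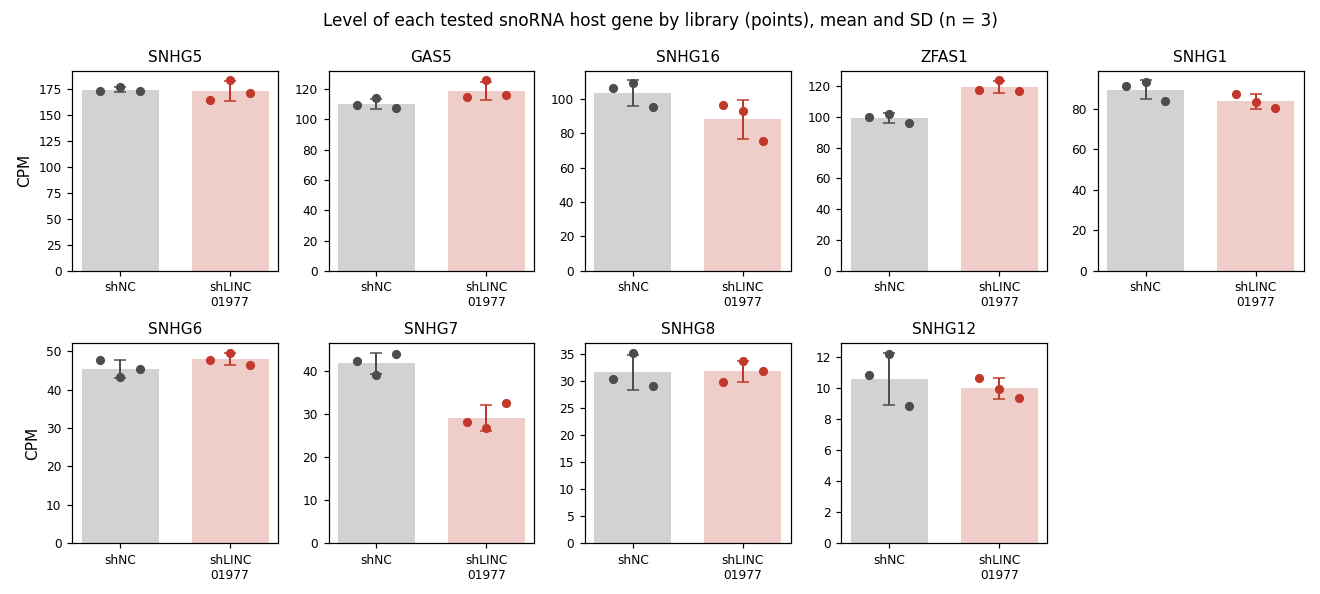
Level of the 9 tested hosts in CPM, 1 panel per gene with its own axis from 0. Points are libraries, bars the means and lines the SD (n = 3), with shNC in grey and shLINC01977 in red. The groups are apart in ZFAS1, GAS5 and SNHG7 and overlap in the other 6 panels.

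ZFAS1 (ENSG00000177410, chr20:49278178-49295738) is transcribed in the opposite direction to the start of ZNFX1. Its level was 100, 102 and 95.7 CPM in the shNC libraries and 117, 124 and 117 CPM in the shLINC01977 libraries. Every knockdown library lay above every control library, and the groups were apart by more than the spread within either. The means were 99.1 ± 3.07 CPM and 119 ± 3.85 CPM (SD, n = 3). The log2 fold change was 0.27, with an SE of 0.05 and a 95% interval of 0.15 to 0.39, which is a 1.11-fold to 1.31-fold higher level (adjusted p = 0.016, edgeR; exact permutation test over libraries, two-sided, p = 0.1, below which this design of 3 against 3 cannot go). The call was lost, at a log2 fold change of 0.24, once the second shLINC01977 library was left out (adjusted p = 0.0557, edgeR). ZFAS1 shares 249 exonic bases, 11.1% of its own, with ZNFX1 on the opposite strand, and the strand setting of the counting is not given in the sources used here, so reads there could belong to either gene. ZNFX1 had counts of 3358, 3118 and 3760 in shNC and 2986, 3168 and 3097 in shLINC01977, a log2 fold change of -0.18 that did not pass the test (adjusted p = 0.128, edgeR). The count of ZFAS1 over that of ZNFX1 was 1.58 ± 0.0681 in shNC and 2.16 ± 0.218 in shLINC01977 (SD, n = 3). This pair was chosen after its values were seen, and ZFAS1 was already higher in every knockdown library. The ratio is therefore given as a description.

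SNHG7 (ENSG00000233016, chr9:136721366-136728184) gives rise to SNORA17A and SNORA17B. Its level was 42.3, 39.1 and 44.1 CPM in shNC and 28.2, 26.8 and 32.6 CPM in shLINC01977. No knockdown library reached the lowest control library, with the third knockdown library the closest. The means were 41.9 ± 2.53 CPM and 29.2 ± 3.03 CPM (SD, n = 3). The log2 fold change was -0.52, with an SE of 0.09 and a 95% interval of -0.74 to -0.30, so that the level in knockdown cells was 0.697 of that in control cells, with bounds of 0.598 and 0.813 (adjusted p = 0.0136, edgeR; exact permutation test, p = 0.1). It was the largest difference among the tested hosts, and 86.3% of all tested genes had a difference of that size or less. With the first shLINC01977 library left out it was -0.50 and the call was lost (adjusted p = 0.0501, edgeR). SNHG7 shares 1094 exonic bases, 25.2% of its own, with FAM69B on the opposite strand. FAM69B had counts of 36, 36 and 33 in shNC and 49, 75 and 30 in shLINC01977, far under the 1553 to 2598 counts of SNHG7.

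**Figure D2:**
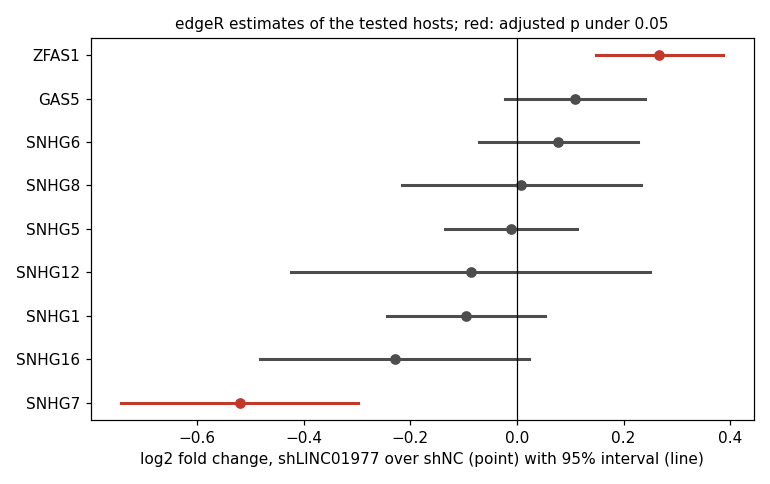
Log2 fold change of the 9 tested hosts, shLINC01977 over shNC, as edgeR estimated it (points) with 95% intervals (lines), in red where the adjusted p was under 0.05. The intervals of ZFAS1 (0.15 to 0.39) and SNHG7 (-0.74 to -0.30) lie away from 0, and those of the other 7 hosts include it.

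Since ZFAS1 and SNHG7 moved in opposite directions, the ratio of their counts was formed within each library, which needs no scaling between libraries. This pair was chosen after its values were seen. The ratio of ZFAS1 to SNHG7 was 2.36, 2.60 and 2.17 in shNC and 4.16, 4.62 and 3.58 in shLINC01977. In CPM, ZFAS1 was higher and SNHG7 lower in every knockdown library than in every control library. The groups therefore had to be apart in this ratio, which is given as a description. Its means, 2.38 ± 0.214 and 4.12 ± 0.521 (SD, n = 3), differed 1.74-fold. Set against SNHG5, the host with the highest level per length, ZFAS1 went from 0.567 ± 0.0123 to 0.689 ± 0.0202 and SNHG7 from 0.240 ± 0.0175 to 0.169 ± 0.0225 (ratios of counts, SD, n = 3). The groups were apart in both ratios, in which SNHG5 serves as the scale. ZFAS1 and SNHG7 were already apart in CPM, so these ratios are given as a description too.

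None of the other hosts of box C/D snoRNAs that were tested passed the edgeR test, at an unadjusted p under 0.05 or by DESeq2 or limma either. GAS5 (ENSG00000234741, chr1:173863900-173868882) had 110, 114 and 108 CPM in shNC and 115, 126 and 116 CPM in shLINC01977. The groups did not overlap, but the lowest knockdown library was close to the highest control library. Its log2 fold change was 0.11, with an SE of 0.05 and a 95% interval of -0.02 to 0.24, and it did not pass the test (adjusted p = 0.235, edgeR; exact permutation test, p = 0.1). As a ratio to SNHG5 within a library, GAS5 was 0.632 ± 0.0100 in shNC and 0.687 ± 0.00919 in shLINC01977 (SD, n = 3), with the groups apart. This ratio was chosen after its values were seen, and GAS5 was already apart in CPM. It is given as a description and adds nothing to the test.

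SNHG16 (ENSG00000163597, chr17:76557766-76565348), the host of the SNORD1 snoRNAs, had 106, 109 and 95.2 CPM in shNC and 96.5, 92.9 and 75.4 CPM in shLINC01977. The groups overlapped, and the third knockdown library was far lower than the rest. The log2 fold change was -0.23 with a 95% interval of -0.48 to 0.02 (adjusted p = 0.196, edgeR), the widest departure from 0 among the hosts that were not called. Leaving out libraries in turn gave -0.30 to -0.13. SNHG16 shares 1639 exonic bases, 30.6% of its own, with AC015802.6 on the opposite strand, which had 10 to 47 counts.

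SNHG1 (ENSG00000255717, chr11:62851988-62855914), which packs the SNORD22 and SNORD25 to SNORD30 snoRNAs into a short gene, had 91.0, 92.9 and 84.0 CPM in shNC and 87.4, 83.1 and 80.2 CPM in shLINC01977. The groups overlapped. Its log2 fold change was -0.10 with a 95% interval of -0.24 to 0.05 (adjusted p = 0.344, edgeR).

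SNHG5 (ENSG00000203875, chr6:85660950-85678736), the host of the SNORD50 snoRNAs, had 174, 177 and 173 CPM in shNC and 165, 184 and 171 CPM in shLINC01977. The knockdown libraries lay on both sides of the control libraries. The difference on the log2 scale was -0.01 with a 95% interval of -0.14 to 0.11 (adjusted p = 0.905, edgeR), and its sign changed with the scaling between libraries. SNHG6 (ENSG00000245910, chr8:66921684-66926398), which holds SNORD87, had 47.9, 43.2 and 45.4 CPM in shNC and 47.9, 49.7 and 46.5 CPM in shLINC01977. The groups overlapped in CPM, though not in FPKM, and the interval of its log2 fold change was -0.07 to 0.23 around 0.08 (adjusted p = 0.451, edgeR). SNHG6 shares 365 exonic bases, 29.3% of its own, with MCMDC2 on the opposite strand, which had at most 27 counts.

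Of the hosts of box H/ACA snoRNAs, SNHG7 was the only one called. SNHG8 (ENSG00000269893, chr4:118278709-118279823), the host of SNORA24, had 30.4, 35.2 and 29.03 CPM in shNC and 29.7, 33.6 and 31.8 CPM in shLINC01977. The knockdown libraries lay within the range of the control libraries, with a log2 fold change of 0.01 and a 95% interval of -0.22 to 0.23 (adjusted p = 0.966, edgeR). SNHG12 (ENSG00000197989, chr1:28578538-28582983), which carries SNORA16A, SNORA44, SNORA61 and the box C/D snoRNA SNORD99, had 10.9, 12.2 and 8.83 CPM in shNC and 10.7, 9.96 and 9.34 CPM in shLINC01977. The control libraries spanned the knockdown libraries. The difference on the log2 scale was -0.09, and its 95% interval of -0.42 to 0.25 was the widest among the tested hosts (adjusted p = 0.721, edgeR).

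SNHG15 (ENSG00000232956, chr7:44983023-44986961) was counted 0, 0 and 5 times in shNC and 0, 0 and 4 times in shLINC01977, and did not pass the filter. Libraries at 0 allow up to 3 counts, for counting error only. The row of SNHG15 lists 2 of the 10 transcripts that GENCODE 29 gives the gene, whereas 66.8% of genes list all of theirs. Whether reads of the other transcripts were counted in this row is not given in the sources used here. For SNHG5 the row lists 18 of 23 transcripts and for SNHG12 it lists 12 of 17, and for the remaining 7 hosts it lists all.

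Levels between genes were compared in FPKM, which is per transcript length. In shNC libraries the order was SNHG5 (49.6 ± 0.936 FPKM, SD, n = 3), ZFAS1 (35.1 ± 1.01), SNHG6 (28.9 ± 1.24), SNHG8 (27.1 ± 2.86), GAS5 (24.1 ± 0.758), SNHG1 (18.8 ± 0.935), SNHG16 (15.3 ± 1.03), SNHG7 (7.65 ± 0.470) and SNHG12 (2.47 ± 0.391). Neighbours in that order were apart in all libraries save SNHG6 and SNHG8, whose ranges overlapped. The order was the same in shLINC01977 libraries, where it ran from SNHG5 at 51.4 ± 2.40 FPKM and ZFAS1 at 44.1 ± 0.885 FPKM to SNHG7 at 5.58 ± 0.661 FPKM and SNHG12 at 2.43 ± 0.153 FPKM, and there SNHG8 and GAS5 were the neighbours whose ranges overlapped. The hosts were well expressed: 95.3% of tested genes had a lower mean FPKM than SNHG5, 93.9% than ZFAS1 and 90.2% than GAS5, but 63.6% than SNHG7 and 35.3% than SNHG12. Summed over the 10 members, the FPKM were 208, 216 and 204 in shNC and 219, 229 and 221 in shLINC01977, with the groups apart (exact permutation test, p = 0.1). In CPM, which are scaled by TMM, the sums of the tested members were 706 ± 21.4 and 702 ± 25.2 (SD, n = 3) and overlapped (exact permutation test, p = 0.9). As a share of all FPKM in a library the members made up 0.0642% ± 0.00305 in shNC and 0.0711% ± 0.00126 in shLINC01977 (SD, n = 3), with the groups apart (exact permutation test, p = 0.1). The summed FPKM and the summed CPM therefore gave different answers, and they differ both in the weight given to length and in the scaling, whose parts were not separated. Over all tested genes the median difference was 0.06 on the log2(FPKM + 0.1) scale and -0.001 on the TMM scale.

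**Figure D3:**
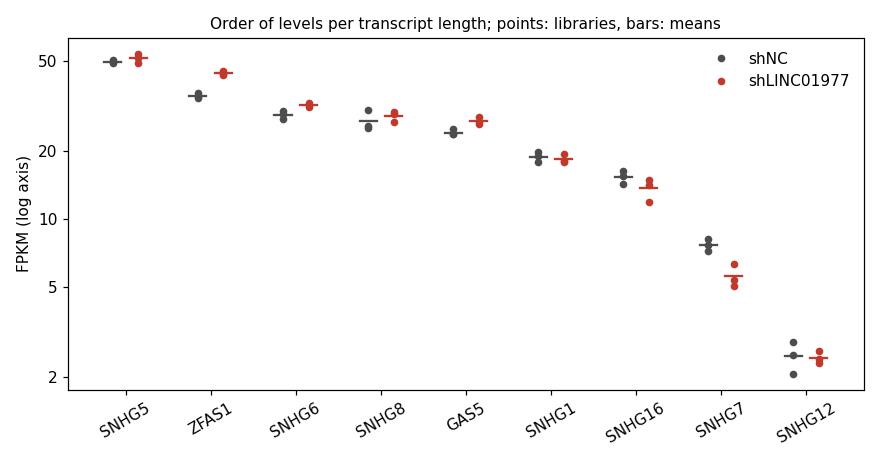
FPKM of the 9 tested hosts on a log axis, in the order of their mean over all libraries. Points are the 3 libraries of each group and bars their means. SNHG5 stands at the top and SNHG12 at the bottom in both groups. In FPKM the groups do not overlap in ZFAS1, GAS5 and SNHG6, which are higher in shLINC01977, and in SNHG7, which is lower. In CPM the groups of SNHG6 overlap.

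The libraries in which the members were highest and lowest are given as a description. In 8 of the 9 tested members the highest CPM was in the second library of a group, the second shNC library for SNHG1, SNHG8, SNHG12 and SNHG16 and the second shLINC01977 library for SNHG5, SNHG6, GAS5 and ZFAS1. The third shNC library was the lowest for SNHG8, SNHG12, GAS5 and ZFAS1. The shares of all tested genes highest or lowest in these libraries are not given here. The counts are therefore not read as a trait of the hosts. The mean over members of the standardized log2 CPM was 0.17, 0.45 and -0.54 in shNC and -0.14, 0.47 and -0.42 in shLINC01977. The values of the groups overlapped, and this profile varied more within the groups than between them. The genes outside the member list whose log2 CPM was most like that mean over the 6 libraries were AC083964.1 (Pearson r = 0.993), RPL36A-HNRNPH2 (0.984), THAP6 (0.982), MIR762HG (0.982) and RECQL4 (0.980). These are the highest of all tested genes over only 6 libraries, and they are given as a description.

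The snoRNAs inside the hosts were poorly captured. Of 25 snoRNA genes in the table that lie within 8 of the hosts on the same strand, none of them within GAS5 or SNHG15, 11 had a mean count under 3 and 8 had a count of 1 in all 6 libraries. These are entries of the table, and some overlap almost fully: SNORA17 with SNORA17A, and the paired entries of SNORA17B and of SNORA16A. How reads were divided between such entries is not given in the sources used here. A count of 1 went with an FPKM as low as 1.83e-06, so it was read as undetected. Only 8 had at least 10 counts in every library, and the highest count, in the SNORD22 gene ENSG00000278527 of SNHG1, was 158. Of the 14 that passed the filter, none was called by edgeR, where 15.1% of all tested genes were called. At an unadjusted p under 0.05 by edgeR, 2 of the 14 were lower, SNORA44 and SNORA17. The value of SNORA17 rests on 94 counts in the first shNC library, against at most 2 in every other. The share of all tested genes at that threshold is not given here. DESeq2 called none and limma on FPKM called 1, SNORD12C, higher. The median log2 fold change of the 14 was -0.09.

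In ZFAS1, which rose, SNORD12C had counts of 13, 11 and 12 in shNC and 16, 21 and 15 in shLINC01977, with a log2 fold change of 0.48 and a 95% interval of -0.22 to 1.17 (adjusted p = 0.319, edgeR). SNORD12B had counts of 16, 19 and 19 against 15, 26 and 12, and its groups overlapped. SNORD12 had 1, 40 and 1 counts against 1, 18 and 1. The jump from 1 to 40 between control libraries shows how unevenly such short genes were counted, and no direction was read from SNORD12. In SNHG7, which fell, the SNORA17B gene ENSG00000276161 had counts of 37, 21 and 20 in shNC and 9, 20 and 21 in shLINC01977, which overlapped. SNORA17 had 94 counts in the first shNC library and at most 2 in every other. SNORA17A, an entry over almost the same bases as SNORA17, had 1 in each. SNORA44 in SNHG12 had 43, 40 and 28 counts in shNC and 18, 16 and 22 in shLINC01977, with the groups apart, a log2 fold change of -1.03 and a 95% interval of -1.84 to -0.21 (adjusted p = 0.0955, edgeR), while its host gave -0.09. For ZFAS1 and SNHG7 these counts were too low to show whether the snoRNAs moved with the spliced host.

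The other noncoding snoRNA hosts were a list of 22, of which 18 were in the table and 15 were tested. None was called higher, and 2 were called lower by edgeR. The 2 are 13.3% of those tested, beside 8.07% of all tested genes called lower and 15.1% called either way. At an unadjusted p under 0.05 by edgeR, none was higher and 6 were lower. The share of all tested genes at that threshold is not given here. DESeq2 called 5 lower and limma called 1 lower, and the shares of all tested genes by these tools are not given here either. SNHG19 was at 17.1 ± 0.602 CPM in shNC and 13.6 ± 0.817 CPM in shLINC01977 (SD, n = 3), a log2 fold change of -0.33 (SE 0.09, adjusted p = 0.0484, edgeR). SNHG14, whose long transcript runs opposite to UBE3A and holds clusters of box C/D snoRNAs, was at 178 ± 4.96 CPM and 154 ± 4.23 CPM, a log2 fold change of -0.21 (SE 0.05, adjusted p = 0.0255, edgeR). Neither call held with library totals in place of TMM or with any of several libraries left out: SNHG19 lost its call in all 6 such fits and SNHG14 in 4. The median of the list was -0.25, with 11 of 15 values negative and it was between -0.27 and -0.15 under all other scalings, tools and filters and with a replicate block. The CPM ranges of 6 of the 15 lay apart and lower, where 18.3% of all tested genes did, and 1 lay apart and higher, where 18.8% did.

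Protein-coding genes also carry snoRNAs in their introns. Of 19 such hosts, all tested, none was called higher and 5, or 26.3%, were called lower by edgeR, beside 8.07% of all tested genes. At an unadjusted p under 0.05 by edgeR, none was higher and 8 were lower, and the share of all tested genes is not given here. DESeq2 called 6 lower and limma on log2(FPKM + 0.1) called 3 lower, and 3 were called lower with a replicate block. Shares of all tested genes in these fits are likewise not given here. TPT1, a growth-related protein, had a log2 fold change of -0.54 (SE 0.12, adjusted p = 0.0306, edgeR) and HSPA8, the constitutive heat shock chaperone, of -0.37 (SE 0.07, adjusted p = 0.0149, edgeR). Both calls were lost with the block and when single libraries were left out, in 3 of 6 such fits for TPT1 and 2 of 6 for HSPA8. The elongation factors EEF1B2 and EEF2 had log2 fold changes of -0.32 (SE 0.04, adjusted p = 0.00301, edgeR) and -0.30 (SE 0.04, adjusted p = 0.00448, edgeR), and their calls were kept in all 15 alternatives. The median of the list was -0.10, and it stayed negative under every scaling, tool and filter, between -0.12 and -0.04. Among the ribosomal proteins, whose genes share the pyrimidine start, 79 were tested, 1 was called higher and 8, or 10.1%, were called lower by edgeR, beside 8.07% of all tested genes. The 11.4% called in either direction lay under the 15.1% of all tested genes, and the median was -0.10 with 65 negative values. RPL18 had a log2 fold change of -0.53 (adjusted p = 0.00251, edgeR), RPS24 of -0.32 (adjusted p = 0.016, edgeR) and RPS15A of -0.25 (adjusted p = 0.0377, edgeR), while RPS26 was higher by 0.24 (adjusted p = 0.0329, edgeR). The call of RPL18 was kept in all 15 alternatives, that of RPS24 was lost in 2 and that of RPS15A in 11, and RPS26 was not called without a filter or with any of the 6 libraries left out. With library totals in place of TMM, 2 of these genes were called higher and 4 lower.

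**Figure D4:**
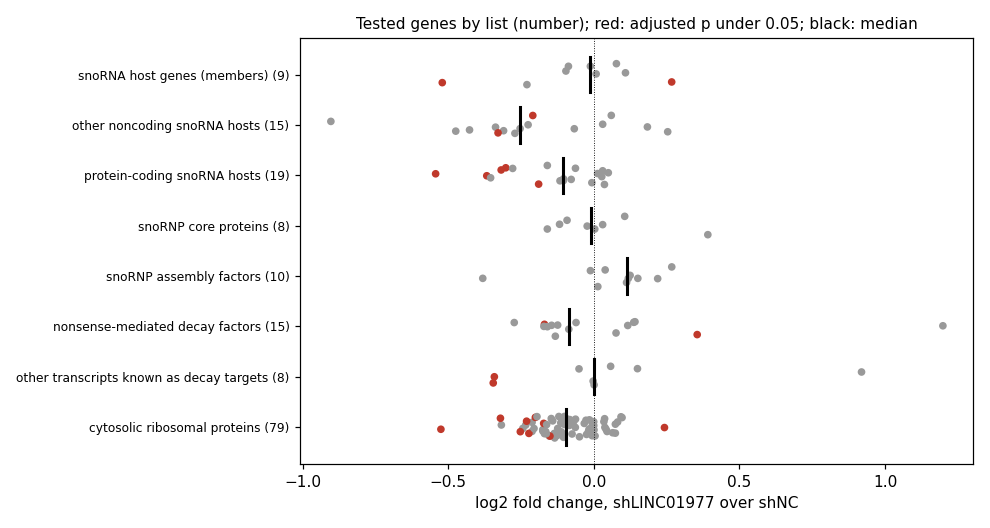
Log2 fold change, shLINC01977 over shNC, of the tested genes of each list, with the number tested in parentheses. Each point is a gene, red where the adjusted p was under 0.05, and black bars are medians. The bar of the members is at -0.01 and that of the other noncoding hosts at -0.25, and the members' red points, ZFAS1 and SNHG7, lie on opposite sides of 0.

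The proteins that hold mature snoRNAs in their particles gave no call by edgeR, where 15.1% of all tested genes were called. In the box C/D particle, which the methyltransferase FBL completes, the log2 fold changes were -0.02 for FBL, -0.16 for NOP56, 0.003 for NOP58 and 0.39 for SNU13. In the box H/ACA particle they were 0.03 for DKC1, the pseudouridine synthase, 0.11 for NHP2, -0.12 for NOP10 and -0.09 for GAR1. None of the 8 passed the test by edgeR, where the adjusted p was between 0.0652 for NOP56 and 0.976 for NOP58, and 1, NOP56, was lower at an unadjusted p under 0.05. DESeq2 called none and limma called NHP2 higher. Of the 10 assembly factors, such as RUVBL1 and NAF1, edgeR called none, beside the same 15.1% of all tested genes. At an unadjusted p under 0.05 by edgeR, 3 were higher and 1 was lower, with a median of 0.12 over the 10. For the core proteins and the assembly factors, the share of all tested genes at that threshold is not given here. No trend is read from these counts. DESeq2 called none and limma called RUVBL1 higher.

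Of 15 factors of nonsense-mediated decay, which degrades the spliced hosts, 1 was called higher and 1 lower, with a median of -0.09. That is 6.67% each way, beside 7.05% of all tested genes called higher and 8.07% called lower. RBM8A, a subunit of the exon junction complex, was at 86.2 ± 1.72 CPM in shNC and 110 ± 3.58 CPM in shLINC01977 (SD, n = 3), a log2 fold change of 0.35 (adjusted p = 0.00563, edgeR). This call was kept in all 15 alternatives. SMG5, which helps to reset the helicase UPF1, had a log2 fold change of -0.17 (adjusted p = 0.036, edgeR), but its call was lost in 12 of 15 alternatives, among them every fit with a library left out. Of 8 other transcripts known as targets of that decay, none was called higher by edgeR or DESeq2, with 1 higher at an unadjusted p under 0.05. The share of all tested genes at that unadjusted threshold is not given here. Where 8.07% of all tested genes were called lower, edgeR called 2 of these 8 lower, or 25%. These were the stress transcription factors DDIT3, with a log2 fold change of -0.35 (adjusted p = 0.0256, edgeR), and ATF4, with -0.34 (adjusted p = 0.00151, edgeR). The call of ATF4 was kept in all 15 alternatives, whereas that of DDIT3 was lost with a replicate block, without a filter and with any library left out. Limma on log2(FPKM + 0.1) called 1 of these targets higher and 2 lower. The median of the targets was -0.001, the same as that of all tested genes.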

How the data were processed

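RNA sequencing of 6 HepG2 libraries, 3 shNC and 3 shLINC01977, was analysed, grouped by the labels. The authors deposited 1 table with whole-number counts per gene, not normalized, and FPKM values, which are counts scaled to length and library total. The submitters' processing notes name bcl2fastq 2.0, HISAT2, StringTie, DESeq2, limma and hg38, without saying which step each made. The counting tool, its strand setting and the annotation are not given in the sources used here. GENCODE 29 holds 29051 of the 29153 gene identifiers, 28118 of them at identical start and end positions, and coordinates are therefore those of GRCh38. Columns of pathway annotation were not used. Every row names a gene.

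Counts were tested with edgeR 4.0.16 (TMM, quasi-likelihood test, Benjamini-Hochberg adjustment over 13452 genes whose mean FPKM reached 0.5) in R 4.3.3. A call is an adjusted p under 0.05. Genes under the filter were read from a fit of all genes. The scripts were tested on simulated data. The share of a gene's count over its FPKM and library total varied by at most 0.686% between libraries of a member, so the FPKM hold no separate measure of isoforms. The chi-square per degree of freedom between replicates was 42.9 to 52.9, so no pair of replicates agreed within sampling noise. The labels do not say whether libraries came from separate cultures, so p-values measure the spread between these libraries. The totals, 49929024 to 60441515, limit precision only for genes with few counts, and floors of 3 counts cover counting error only.

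The members and the gene lists were chosen with earlier results of these data known. The lists were other noncoding hosts, protein-coding hosts, snoRNP core proteins, assembly factors, decay factors, decay targets, ribosomal proteins and nested snoRNA genes. Named genes were all members, up to 4 called genes with the largest change in each other list, the core proteins and the 5 genes most alike in profile. The overlapping genes, ZNFX1 among them, the nested snoRNAs, RUVBL1, NAF1 and the count ratios were chosen after their values were seen. Alternatives were RLE, upper quartile or library-total scaling, DESeq2 1.42.0, limma 3.58.1 on log2(FPKM + 0.1) or log2(FPKM + 1), no filter or a mean FPKM of at least 1, a replicate block, and leaving out each library. Promoters are from RefSeq (GRCh38.p14) and snoRNA sequences from GRCh38.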

Additional observations from a re-analysis of the deposited data

How the results depend on the processing

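Calls at the edge of the threshold moved most. Leaving out each library in turn, 1 to 2 members were called, with ZFAS1 between 0.24 and 0.29 (adjusted p 0.0397 to 0.0557, edgeR) and SNHG7 between -0.61 and -0.46 (0.0145 to 0.0501, edgeR). All scalings, tools, filters and the block called both. SNHG5 turned positive with library totals (0.0536), upper quartile scaling (0.0192) and limma with a pseudocount of 0.1 (0.0509) or 1 (0.0501), and ranged from -0.0562 to 0.0238 with a library left out. SNHG8 was -0.0038 without a filter and -0.0458 to 0.094 with a library left out, and SNHG12 was -0.20 to 0.0223. SNHG1, SNHG6, SNHG16 and GAS5 kept direction and side of the threshold in all 15 alternatives. LINC01977 ranged from -5.73 to -0.52. Of the other noncoding hosts, 2 were called, but 0 with library totals, 1 with upper quartile scaling, limma at either pseudocount, no filter or the replicate block, 5 with DESeq2, and 0 to 1 with a library left out. Of the protein-coding hosts, 3 in place of 5 were called with limma at either pseudocount or the block, and 2 to 5 with a library left out. Limma at either pseudocount called 1 core protein, 1 assembly factor and 1 nested snoRNA gene where edgeR called 0. Library totals also called 1 assembly factor, and leaving out a library called 0 to 1 core proteins. Decay factors called fell from 2 to 1 with library totals, upper quartile scaling, limma at either pseudocount, no filter or the block, and were 1 to 2, all higher, with a library left out, where SMG5 was never called. Decay targets fell from 2 to 1 with no filter, the block or any library left out, and were 3 with library totals and with limma. Ribosomal proteins called were 9, and 4 to 7, all lower, with a library left out and 13 with DESeq2. Counts over 6 libraries have fewer degrees of freedom with a block or a library left out, and the cause of the other moves was not tested. The replicate numbers are shared by the groups, and deviations of same-numbered libraries correlated at -0.034, 0.0051 and 0.061 over all tested genes. Such a correlation cannot show whether same-numbered libraries share a batch, since a batch may move only some genes. With the replicate block, ZFAS1 was 0.27 and SNHG7 was -0.52, and no member's call changed. SNHG15, LINC01977 and most nested snoRNAs had too few counts to be compared.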
